A study of Mus musculus with 24 samples.

Results

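The response of the female mouse urogenital sinus (UGS) to dihydrotestosterone (DHT) was compared between 12 h and 6 h after treatment. The comparison used the arrays titled for those times, 14 of the 24 in the series. They hold 7 pairs of RNA pools, 4 at 6 h and 3 at 12 h, each pair measured on 2 arrays with exchanged dyes. In every pair a pool from DHT-exposed embryos was hybridised directly against a pool from vehicle-exposed embryos. The other 10 arrays, 5 pairs of untreated male and female littermates at 17.5 days post coitum (dpc), entered the fit to estimate each gene's spread and served as a reference for sex bias.

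All embryos were C57BL/6J. Pregnant dams received 50 mg/kg DHT or vehicle at 16 dpc, and the UGS of embryos sexed as female by their gonads was collected 6 or 12 h later. The accessory ducts were dissected away. Each pool combined RNA from several embryos, so a pair is 1 replicate and the spread between single embryos is not seen. The DHT reached the embryos through the dam. The tissue was whole UGS, epithelium and mesenchyme together, and fewer cells of a type and less RNA per cell cannot be told apart in it. All 6 h arrays were hybridised on 1 day and all 12 h arrays on another, per the labels, so time and hybridisation day cannot be told apart.

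DHT is the more potent androgen made locally from testosterone, and it acts by changing transcription. In the UGS it acts first on mesenchyme. Androgen-stimulated mesenchyme then signals to the epithelium, whose buds become the prostate, through paracrine factors of the FGF, Wnt, BMP and hedgehog families. A response of direct targets can therefore differ in time from a response relayed between tissue layers.

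Values are log2 ratios of DHT over vehicle, so that 0 means equal RNA in both pools, and a difference is the 12 h ratio minus the 6 h ratio. Before any correction, the median signal of an array's spots was 102.3 to 129 in Cy3 and 112.4 to 124 in Cy5 at 6 h, and 142.2 to 151.1 and 133.2 to 146.2 at 12 h. A gene is described as called when its difference passed an adjusted p of 0.05, and all 23 called genes were well above background on all 14 arrays. Y-linked RNA was present at 6 h although all pools were labelled female. Ddx3y, a Y-linked RNA helicase gene, was well above background on 6 of 8 vehicle arrays and on 0 of 8 DHT arrays of 6 h. Eif2s3y, a Y-linked translation factor gene, was so on 6 of 8 vehicle and 6 of 8 DHT arrays. The ratio of Eif2s3y was −0.037, −2.38, −1.25 and −1.58 in 6 h pairs 1 to 4 and −0.092, −0.0074 and 0.048 in 12 h pairs 1 to 3. Pairs 2, 3 and 4 of 6 h thus had more of it in the vehicle pool, while the ratios of pair 1 and of the 12 h pairs were near 0. At 12 h Eif2s3y was well above background on 1 of 6 DHT and 2 of 6 vehicle arrays. The 12 h ratios near 0 thus come mostly from signals near background and do not show equal amounts. Since pair 1 of 6 h lacked the excess in vehicle, it is also given alone. Pair 1 did not stand apart on every Y-linked gene, since Kdm5d, a Y-linked demethylase gene, read −0.26, −0.52, −0.33 and −0.26 in 6 h pairs 1 to 4.

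By the class rule given below, most of the genes whose response differed between the times changed sign. Of 23 genes, 12 were lower in DHT than in vehicle pools at 6 h and higher at 12 h, and 4 the reverse. The 12 included the transcription factor gene Gata3, the BMP target Id1, the Wnt antagonist Wif1, the ephrin receptor Epha3 and the basement membrane collagen Col4a6. The 6 h falls of Wif1 and Epha3 did not pass an adjusted p of 0.05 in limma (0.175 and 0.165). In 6 h pair 1 their ratios were −0.054 and −0.085. Both were higher in males, by 1.53 and 0.94. The part of male RNA in vehicle pools in their 6 h ratios was not tested. The 4 included Rhoj, a small GTPase gene of endothelial cells. Mkx and Slitrk6 differed from vehicle at 12 h alone by the same class rule, and Smoc2, Pdia4 and 3 other genes at 6 h alone.

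In limma 23 of 24711 genes differed between the times at an adjusted p under 0.05, or 0.0931% of genes tested. Of these 19 were higher at 12 h (0.0769%) and 4 lower (0.0162%). At an unadjusted p under 0.05 the difference was positive in 1617 genes (6.54%) and negative in 1976 (8%). Within 6 h alone 424 genes passed (1.72%), 126 higher (0.51%) and 298 lower (1.21%), and within 12 h alone 25 passed (0.101%), 11 higher (0.0445%) and 14 lower (0.0567%). Among the 298 genes lower at 6 h the median ratio went from −0.26 at 6 h to −0.0050 at 12 h. It went from 0.22 to 0.013 among the 126 higher at 6 h. These sets were chosen on the 6 h ratios, and a median nearer 0 at the other time is in part given by that choice. Over all genes, which are not independent replicates, the mean ratios at the 2 times correlated at r = −0.058, and 49.2% of 24715 genes had opposite signs.

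The calls rested on few pools. In limma no gene passed when any 12 h pair was left out, with 3491, 2982 and 3080 genes at an unadjusted p under 0.05 without pairs 1, 2 and 3. None passed without 6 h pair 2, with 2891 at an unadjusted p under 0.05. The count was 6 without 6 h pair 1, 15 without pair 3 and 3 without pair 4 (Gata3, Gadd45g and Shh). With pair 1 as the sole 6 h pair 5 genes passed and none of the 23 was among them. The 5, chosen after their values were seen, were Asns, Cxcl10, Mgam, Oasl2 and 1 probe without a gene name here, and in that fit their differences ran from −0.99 to −0.65. In each of these fits all 23 kept the sign of their difference and an unadjusted p under 0.05, which is a description, since the 23 were chosen on the same pools.

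The 23 genes were sorted by whether their ratio differed from 0 at each time at an unadjusted p under 0.05. In 16 it did at both times with opposite signs (opposite), in 2 at 12 h alone (late) and in 5 at 6 h alone (faded). No called gene had the same sign at both times by this rule, nor lacked a difference from 0 at both. Of the 16 opposite genes, 7 passed an adjusted p of 0.05 in limma at 6 h and 5 at 12 h. The choice of genes on the difference itself favours the opposite class. The pairs did not overlap between times in any of the 23, which their choice on these same pairs all but fixes. Over 24240 genes the share with all 12 h pairs above all 6 h pairs was 7.52% and with all below 8.21%.

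**Figure D1:**
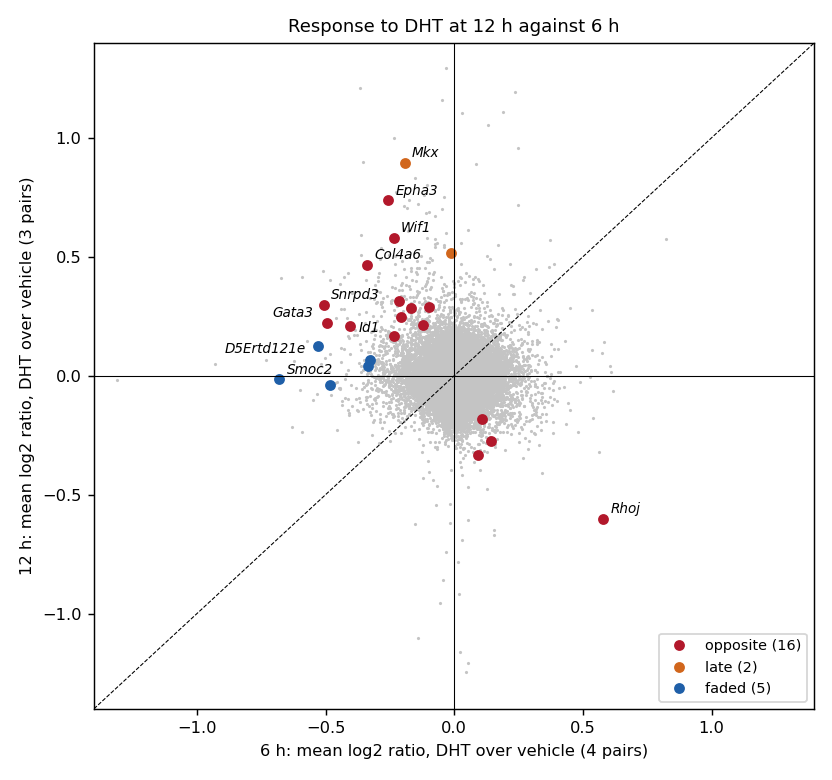
Mean log2 ratio of DHT over vehicle at 12 h (vertical axis, 3 pairs) against 6 h (horizontal axis, 4 pairs). Grey points are genes, coloured points the 23 genes past the threshold for the difference by class, and the dashed line marks equal responses; 1 gene lies outside the axes. Of the 16 opposite genes, 12 lie at the upper left and 4 at the lower right.

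The genes lower at 6 h and higher at 12 h held developmental regulators. Gata3 encodes a zinc-finger transcription factor of the urogenital ducts and the UGS. Its ratio was −0.56, −0.64, −0.41 and −0.37 in 6 h pairs 1 to 4 and 0.17, 0.12 and 0.38 in 12 h pairs 1 to 3. All 6 h pairs were below 0 and all 12 h pairs above it, and pair 1 was the second lowest. The mean was −0.49 (SD 0.13, n = 4) at 6 h, past the threshold in limma (adjusted p = 0.00258), and 0.22 (SD 0.14, n = 3) at 12 h (adjusted p = 0.133). The difference was 0.72 (SE 0.084, adjusted p = 0.0129 in limma), or 1.65-fold. Gata3 kept its call for the difference in 12 of 19 other settings, with differences from 0.53 to 0.82.

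Id1, an inhibitor of basic helix-loop-helix factors that BMP signalling induces, had the same pattern on both of its probes. The 6 h ratios were −0.46, −0.51, −0.27 and −0.38 and the 12 h ratios 0.14, 0.088 and 0.39. The groups did not overlap, and the difference was 0.61 (SE 0.090, adjusted p = 0.0478 in limma). The second probe gave −0.40 at 6 h, 0.22 at 12 h and a difference of 0.62. Id3, a related inhibitor, had ratios of −0.29, −0.40 and −0.21 in 6 h pairs 2 to 4 and −0.053 and 0.17 in 12 h pairs 1 and 3, and did not pass (difference 0.36, adjusted p = 0.229). Its values were missing in 6 h pair 1 and 12 h pair 2.

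Wif1 and Fzd7 were the Wnt pathway genes called. Wif1 encodes a secreted protein that binds Wnt ligands and keeps them from their receptors. Its ratio was −0.054, −0.56, −0.18 and −0.15 at 6 h and 0.57, 0.51 and 0.67 at 12 h. The rise over vehicle at 12 h passed on its own (mean 0.58, adjusted p = 0.0419 in limma), while the 6 h mean of −0.24 did not (adjusted p = 0.175) and was lowest in pair 2. Wif1 differed by 0.82 between times (SE 0.12, adjusted p = 0.0478) and by 0.63 with 6 h pair 1 alone. Fzd7, a Wnt receptor of the Frizzled family, had ratios of −0.25, −0.21, −0.13 and −0.086 at 6 h and 0.34, 0.25 and 0.27 at 12 h. The Fzd7 difference was 0.45 (SE 0.075, adjusted p = 0.0494), and its second, dimmer probe read −0.038, so the 2 probes disagree.

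Epha3 encodes a receptor tyrosine kinase for ephrin-A ligands that guides cell adhesion and movement. Its ratio was −0.085, −0.58, −0.18 and −0.18 at 6 h and 0.66, 0.68 and 0.87 at 12 h. The 12 h pairs stood well apart from 0 and the 6 h pairs, other than pair 2, nearer to it. The rise at 12 h passed (mean 0.74, SD 0.11, adjusted p = 0.0299 in limma), the 6 h mean of −0.26 did not (adjusted p = 0.165), and the difference of 0.99 (SE 0.13, adjusted p = 0.0259) is 1.99-fold. A second probe read 0.027 at 6 h and 0.63 at 12 h, so both probes were higher at 12 h and 1 was below 0 at 6 h.

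Col4a6, the alpha 6 chain of collagen IV in epithelial basement membranes, had ratios of −0.33, −0.59, −0.097 and −0.34 at 6 h and 0.49, 0.29 and 0.63 at 12 h. The difference was 0.81 (SE 0.11, adjusted p = 0.0259 in limma). Its 3 probes disagreed, the others giving differences of 0.25 and −0.030. Col4a5, whose chain assembles with that of Col4a6, went from −0.15 to 0.33 and did not pass (difference 0.48, adjusted p = 0.0565).

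Gadd45g, a stress-induced gene of growth arrest and signalling to p38 and JNK kinases, was the 1 gene past the threshold at 6 h, at 12 h and for the difference. Its ratio was −0.12, −0.28, −0.24 and −0.22 at 6 h and 0.30, 0.27 and 0.38 at 12 h. It fell by 0.21 at 6 h (SD 0.069, adjusted p = 0.0186) and rose by 0.31 at 12 h (SD 0.057, adjusted p = 0.0341) in limma. The difference of 0.53 (SE 0.060, adjusted p = 0.0129) kept its call in 12 of 19 other settings.

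Snrpd3, a core Sm protein of the spliceosome, had ratios of −0.43, −0.85, −0.53 and −0.22 at 6 h and 0.39, 0.084 and 0.42 at 12 h, a difference of 0.81 (SE 0.13, adjusted p = 0.0494 in limma). Its second probe gave 0.79. The spread at 6 h was wide, with pair 2 the lowest. The remaining 4 genes of this pattern, which the naming rule did not cover and which were chosen after their values were seen, complete the 12. Camk1d, a calcium- and calmodulin-dependent kinase, differed by 0.45, Plagl2, a zinc-finger transcription factor, by 0.40, 8430406M14Rik by 0.38 and Slc22a4, a transporter of organic cations, by 0.33 (adjusted p = 0.0494 each). The other probes of Camk1d read differences of 0.11 and 0.12.

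Rhoj, the gene with the largest absolute difference among the 23, encodes a Cdc42-related GTPase of endothelial cells. Its ratio was 0.64, 0.47, 0.79 and 0.42 at 6 h and −0.39, −1.10 and −0.31 at 12 h. Every 6 h pair was above 0 and every 12 h pair below it, with 12 h pair 2 far lower than the others. Rhoj rose by 0.58 at 6 h (SD 0.17, adjusted p = 0.0306 in limma), and its 12 h mean of −0.60 (SD 0.43) did not pass (adjusted p = 0.0826). The difference was −1.18 (SE 0.18, adjusted p = 0.0489), and −1.0 on the second probe. Among the 20 endothelial markers measured Rhoj was the 1 called. As a member, Rhoj itself is in the counts and means of this list given next. At an unadjusted p under 0.05, 9 were lower at 12 h and 0 higher, against 8% and 6.54% of all genes, and 6 had all 12 h pairs below all 6 h pairs, against 8.21%. The means of that list were 0.18, 0.089, 0.079 and 0.021 at 6 h and −0.043, −0.091 and −0.10 at 12 h, while Pecam1 and Cdh5, defining endothelial junction genes, read −0.058 and −0.081 at 6 h and −0.17 and −0.027 at 12 h. The part of endothelial content in the Rhoj values was not tested.

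Pcdh8, a protocadherin of cell adhesion, fell in DHT pools at 12 h. Its ratio was 0.12, 0.19, 0.0045 and 0.055 at 6 h and −0.40, −0.32 and −0.28 at 12 h. The fall at 12 h was 0.33 (adjusted p = 0.0299 in limma) and the difference −0.43 (SE 0.061, adjusted p = 0.0259). Mpv17l, a membrane protein gene of the Mpv17 family, went from 0.14 to −0.27 and B330016D10Rik from 0.11 to −0.18 (adjusted p = 0.0494 for both differences, −0.41 and −0.29).

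**Figure D2:**
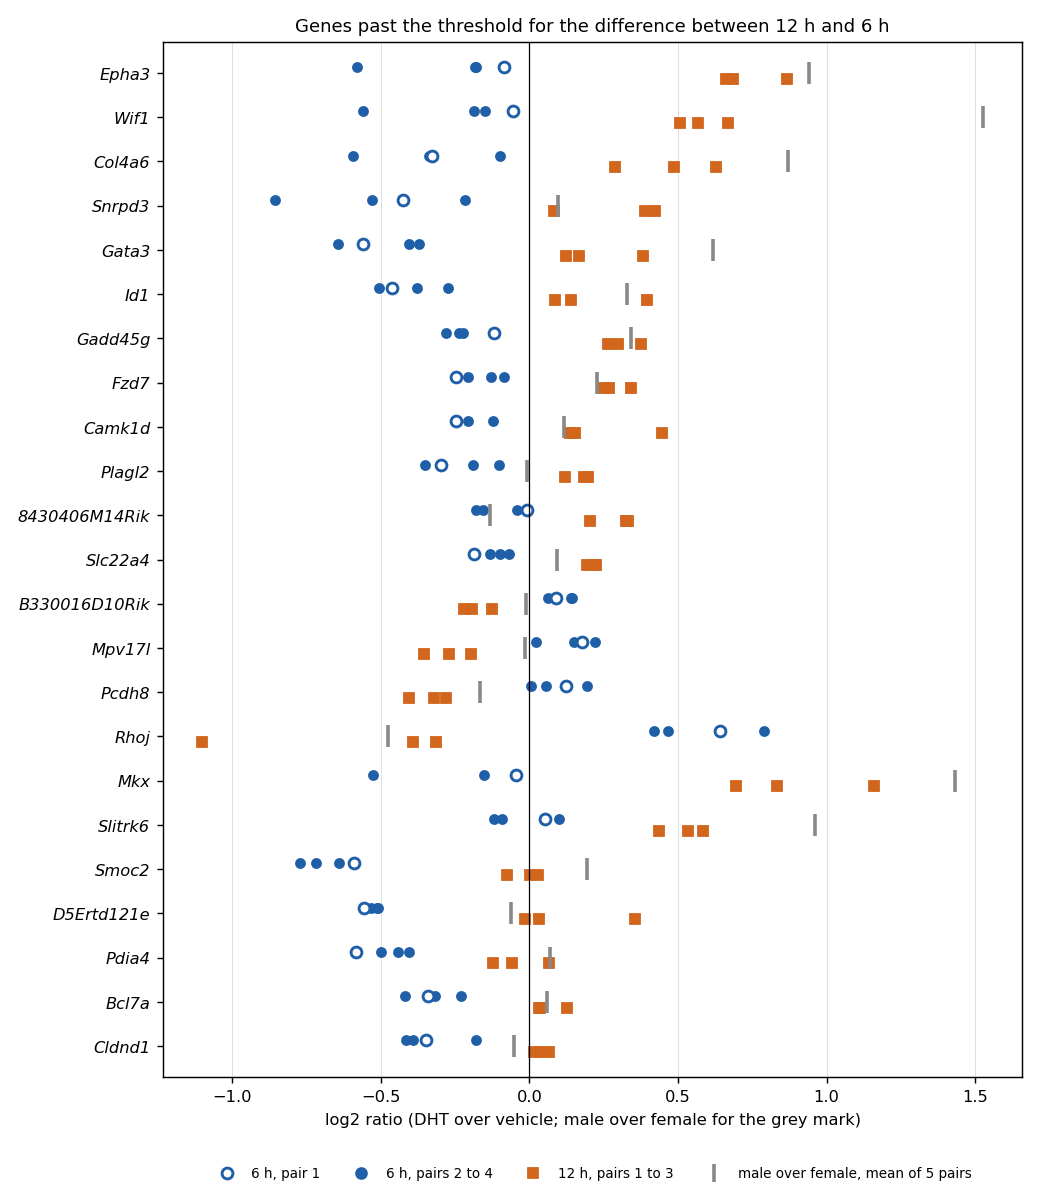
Log2 ratio of DHT over vehicle (horizontal axis) in each pair of pools for the 23 genes past the threshold for the difference, with the mean of 5 male over female pairs as a grey mark. In every gene the 3 squares of 12 h lie apart from the 4 circles of 6 h, and in Mkx, Epha3 and Wif1 the open circle of 6 h pair 1 lies closer to 0 than −0.1.

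The late genes were Mkx and Slitrk6. Mkx encodes a homeobox transcription factor of tendon and connective tissue. Its ratio was −0.044, −0.53, −0.15 and −0.044 at 6 h and 0.83, 0.70 and 1.16 at 12 h. The 6 h pairs other than pair 2 were near 0, and all 12 h pairs lay far above them. The mean rose by 0.90 at 12 h (SD 0.24, adjusted p = 0.0299 in limma), and the difference was 1.09 (SE 0.15, adjusted p = 0.0259), or 0.94 with 6 h pair 1 alone (adjusted p = 0.177). Slitrk6, a transmembrane leucine-rich repeat protein of neurons and other cells, had ratios of 0.054, −0.12, 0.099 and −0.091 at 6 h and 0.44, 0.58 and 0.53 at 12 h. It rose by 0.52 at 12 h (SD 0.075, adjusted p = 0.0299), and the difference was 0.53 (SE 0.088, adjusted p = 0.0494).

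Nt5e, which encodes the adenosine-forming surface enzyme CD73, rose most among the named genes at 12 h and did not pass for the difference. Its ratio was 0.73, −0.21, 0.063 and −0.056 at 6 h and 1.11, 0.76 and 1.29 at 12 h. Pair 1 was the high one at 6 h and nearly reached the lowest 12 h pair. The 12 h mean of 1.06 passed (adjusted p = 0.0341 in limma), while the difference of 0.93 had an adjusted p of 0.0803. Without 6 h pair 1 the difference was 1.12 and passed (adjusted p = 0.0296). A second, dimmer probe of Nt5e gave a difference of 0.059 over all pairs.

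The faded genes were Smoc2, D5Ertd121e, Pdia4, Bcl7a and Cldnd1, and all 5 were lower in DHT pools at 6 h. Smoc2 encodes a secreted SPARC-related protein of the matrix. Its ratio was −0.59, −0.77, −0.72 and −0.64 at 6 h and −0.075, 0.0018 and 0.031 at 12 h. The 6 h pairs were close together, and the 12 h pairs lay near 0. The fall of 0.68 at 6 h passed (SD 0.080, adjusted p = 0.000378 in limma), and the difference was 0.67 (SE 0.084, adjusted p = 0.0212), with a call kept in 10 of 19 other settings. The second probe of Smoc2 read −0.17 at 6 h and a difference of 0.14.

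Pdia4, a protein disulfide isomerase of the endoplasmic reticulum, had ratios of −0.58, −0.50, −0.40 and −0.44 at 6 h and −0.12, −0.057 and 0.067 at 12 h. The difference was 0.44 (SE 0.072, adjusted p = 0.0494 in limma). D5Ertd121e had a 6 h mean of −0.53 with an SD of 0.021, the narrowest of the 23 genes, and a 12 h mean of 0.12 with an SD of 0.20, where pair 1 was at 0.36. Its difference was 0.65 (adjusted p = 0.0259), against 0.027 on its second probe. Bcl7a, a subunit of SWI/SNF chromatin remodelling complexes, went from −0.33 to 0.065, and Cldnd1, a claudin-domain membrane protein, from −0.33 to 0.040 (adjusted p = 0.0494 for both), with the second probe of Cldnd1 at a difference of 0.13.

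Lef1, Egfr, Fgf18 and Qpct, which earlier results had named at 6 h, lay nearer 0 at 12 h and did not pass for the difference. Lef1, a nuclear partner of beta-catenin, went from −0.43 to 0.11 (difference 0.54, adjusted p = 0.0797 in limma). Its 12 h pairs read 0.32, −0.15 and 0.18. Egfr, the EGF receptor, went from 0.32 to −0.049 (adjusted p = 0.119), Fgf18, an FGF ligand, from 0.29 to −0.043 (adjusted p = 0.0932), and Qpct, which cyclises N-terminal glutamine, from 0.47 to 0.043 (adjusted p = 0.0829). In Egfr, Fgf18 and Qpct all 6 h pairs lay above all 12 h pairs, with pair 1 the highest. The other, dimmer probes of Egfr gave differences from −0.18 to 0.049.

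Synpr, a synaptic vesicle membrane protein gene, was the 1 gene past the threshold at both times in the same direction. Its ratio was 0.32, 0.22, 0.25 and 0.29 at 6 h and 0.33, 0.37 and 0.51 at 12 h. It rose by 0.27 at 6 h (SD 0.045, adjusted p = 0.0168) and by 0.40 at 12 h (SD 0.094, adjusted p = 0.0299) in limma. The 6 h and 12 h pairs lay next to each other without overlap, and the difference of 0.13 did not pass (adjusted p = 0.444). In males Synpr exceeded females by 0.81.

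The promoters of the called genes were searched for the half-site that steroid hormone receptors share, AGAACA on either strand (TGTTCT on the other), and for the full palindrome of both half-sites spaced by 3 bases, which overlaps the half-site search. Of the 23 genes, 15 matched the RefSeq promoter table (build GRCm38.p6), and the 250 bases before the start site were read. The half-site was in 1 of the 15, Pdia4, and in 16.1% of 32851 promoters of this length in the table. The full site was in 0 of the 15 and in 0.00913% of the table. A match is a description of the letters, not a site of binding. Below are the promoters of Gata3, which shares the smallest adjusted p with Gadd45g, of Rhoj, with the largest reversal, and of Pdia4, with the half-site in capitals, 155 bases before the start. Each is given 5′ to 3′ on the gene's strand, at chr2:9878601-9878850 (minus strand), chr12:75308063-75308312 (plus) and chr6:47813513-47813762 (minus).
Gata3: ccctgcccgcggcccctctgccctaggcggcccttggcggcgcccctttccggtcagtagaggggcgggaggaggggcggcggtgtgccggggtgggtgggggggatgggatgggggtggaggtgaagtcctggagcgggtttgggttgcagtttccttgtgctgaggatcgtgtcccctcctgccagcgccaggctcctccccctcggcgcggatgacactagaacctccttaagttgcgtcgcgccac
Rhoj: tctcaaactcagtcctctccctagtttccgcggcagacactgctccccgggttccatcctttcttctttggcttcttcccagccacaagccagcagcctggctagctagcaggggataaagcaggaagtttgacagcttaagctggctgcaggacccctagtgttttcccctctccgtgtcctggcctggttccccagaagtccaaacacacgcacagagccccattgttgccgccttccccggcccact
Pdia4: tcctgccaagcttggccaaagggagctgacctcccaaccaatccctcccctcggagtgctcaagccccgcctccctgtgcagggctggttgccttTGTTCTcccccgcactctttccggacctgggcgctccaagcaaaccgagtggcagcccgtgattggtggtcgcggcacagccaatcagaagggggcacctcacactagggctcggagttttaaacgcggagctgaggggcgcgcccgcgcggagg
By base composition the Gata3 promoter is 70% G and C with 19 CG pairs, that of Rhoj 58% with 7, and that of Pdia4 65.2% with 17.

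Genes that regulate prostatic budding and UGS development were mostly below 0 at 6 h and above 0 at 12 h. Of 26 measured, 23 had a negative mean ratio at 6 h and 19 a positive one at 12 h, against 11265 and 12664 of all 24715 genes. Gata3 was the 1 member called. At an unadjusted p under 0.05, 13 were higher at 12 h and 0 lower, against 6.54% and 8% of all genes. The median difference was 0.19, beside −0.0039 over all genes, and 12 members had all 12 h pairs above all 6 h pairs, against 7.52% of all genes. The mean of the list was −0.22, −0.18, −0.084 and −0.050 in 6 h pairs 1 to 4 and 0.11, 0.14 and 0.14 in the 12 h pairs. Pair 1 was the lowest of the 6 h pairs, and the list's median difference was 0.29 with pair 1 alone.

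Shh, the hedgehog ligand that UGS epithelium makes for budding, stood just outside the threshold. Its ratio was −0.43, −0.45, −0.38 and 0.12 at 6 h and 0.34, 0.67 and 0.47 at 12 h. Pair 4 stood apart from the other 6 h pairs. The difference was 0.78 (SE 0.13, adjusted p = 0.0565 in limma), and without 6 h pair 4 it was 0.91 and passed (adjusted p = 0.0201). Male-female pair 1 was missing in the fit of Shh, as in those of Id1, Col4a5, Fgf18 and Nt5e. Hoxa13, which patterns the caudal tract, had ratios of −0.33, −0.30, −0.23 and −0.075 and then 0.15, 0.19 and 0.10 (difference 0.38, adjusted p = 0.0565). Fgfr2, an epithelial receptor for FGF10, went from −0.28 to 0.29 (adjusted p = 0.0729), and Fgf10, the mesenchymal ligand, from −0.054 to 0.25 (adjusted p = 0.115). The other, dimmer probes of Fgfr2 gave differences of 0.11 and −0.022.

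**Figure D3:**
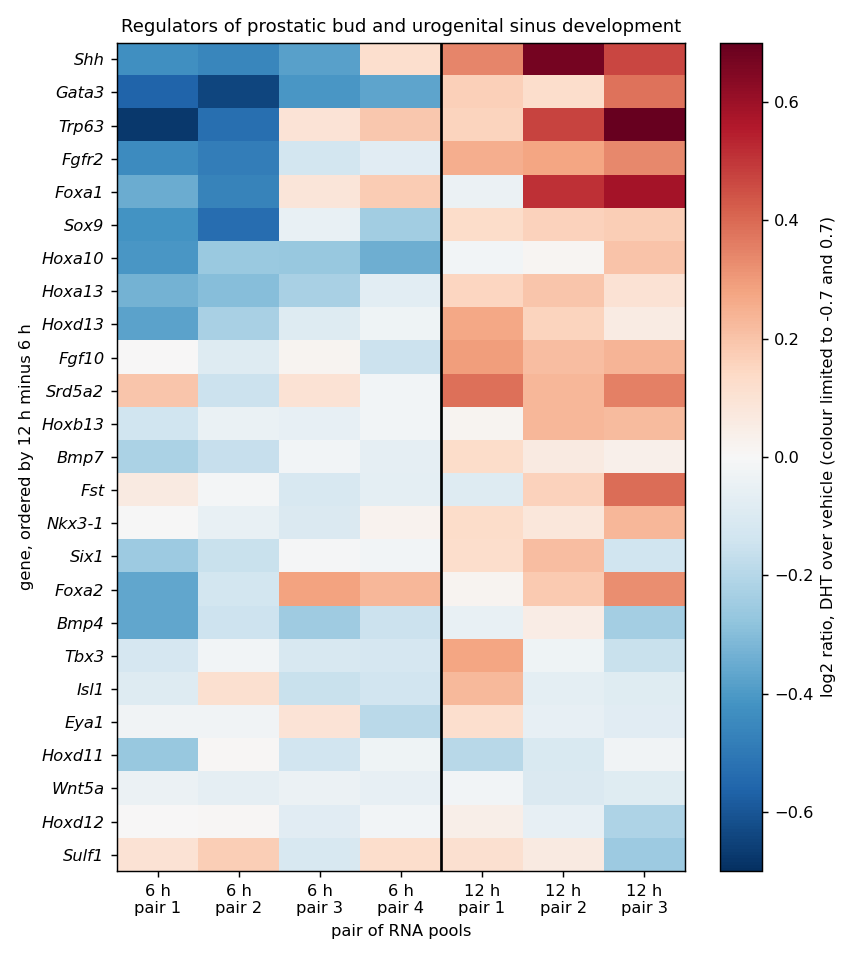
Log2 ratio of DHT over vehicle, as colour from −0.7 to 0.7, for 25 of the 26 regulators of prostatic bud and UGS development (rows, ordered by difference) in the 4 pairs of 6 h and 3 pairs of 12 h (columns). The upper rows are mostly blue at 6 h and red at 12 h, with Shh in 6 h pair 4 at 0.12, and the lower rows show no such split.

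Few members of the signalling lists were called. The Wnt list had 2 of 41 higher at 12 h (Wif1, Fzd7), the list of BMP, activin and TGF-beta signalling 1 of 28 (Id1), the list of immediate early and stress genes 1 of 32 (Gadd45g), and basement membrane and stromal matrix 2 of 39 (Smoc2, Col4a6). None had a member called lower. Over all genes 0.0769% were called higher and 0.0162% lower, and the lists were not compared by a test. In limma the hedgehog (18 measured), Notch (20), FGF, IGF and EGF (33), retinoic acid (19), cell cycle (34), circadian clock (16) and cholesterol and fatty acid (26) lists had 0 called. Their members at an unadjusted p under 0.05 numbered 4, 1, 6, 2, 4, 2 and 2 higher and 1, 4, 6, 0, 1, 0 and 2 lower, in that order, beside 6.54% and 8% of all genes. The median differences of these 11 lists lay between −0.075 for cell cycle and 0.080 for the matrix list.

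Notch1, a receptor of juxtacrine signalling, went from −0.32 to 0.18 (difference 0.51, adjusted p = 0.0565 in limma), while Hey2 and Heyl, transcriptional targets of Notch, went from 0.17 to −0.12 (adjusted p = 0.156) and from 0.18 to −0.18 (adjusted p = 0.237). A second, dimmer probe of Heyl read −0.023 at 6 h and −0.054 at 12 h, without a change of sign. The hedgehog receptor and target Ptch1 went from −0.26 to 0.18 (adjusted p = 0.121), and the ligand gene Dhh from 0.24 to −0.19 (adjusted p = 0.119). Dhh read 0.55, 0.24, 0.14 and 0.042 in 6 h pairs 1 to 4. Pair 1 was also the highest 6 h pair for the mean of neuron and Schwann cell markers, at 0.42. The part of nerve content in the Dhh values was not tested. A second, dimmer probe of Ptch1 gave a difference of −0.075. Within both pathways members with positive and negative differences stood side by side. Aldh1a1, which makes retinoic acid, had ratios of −0.079, −1.14, −0.77 and −0.71 at 6 h and 0.10, 0.46 and 0.67 at 12 h (difference 1.08, adjusted p = 0.0565). Its low values were in the 3 pairs with more Eif2s3y in vehicle, and it exceeded females by 2.49 in males.

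Androgen- and glucocorticoid-responsive genes, 27 measured, had 0 called for the difference in limma. At an unadjusted p under 0.05, 6 were higher and 1 lower at 12 h, against 6.54% and 8% of all genes. Their median ratio was 0.015 at 6 h and 0.14 at 12 h. Klf15, a steroid-induced transcription factor, had ratios of 0.72, −0.027, 0.53 and 0.27 at 6 h and 0.63, 0.56 and 0.52 at 12 h. Pair 1 of 6 h was higher than any 12 h pair, and the difference of 0.20 did not pass (adjusted p = 0.55). Fkbp5, a chaperone of steroid receptors, had ratios of 0.24, −0.019, 0.019 and 0.057 at 6 h and 0.25, 0.29 and 0.37 at 12 h (difference 0.23, adjusted p = 0.278). For Klf15, Fkbp5 and Nt5e pair 1 was the highest 6 h pair. Tsc22d3, a leucine zipper gene that glucocorticoids induce, went from −0.13 to 0.22 (adjusted p = 0.112), and Tmprss2, an androgen-regulated serine protease, from −0.20 to 0.25 (adjusted p = 0.182).

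**Figure D4:**
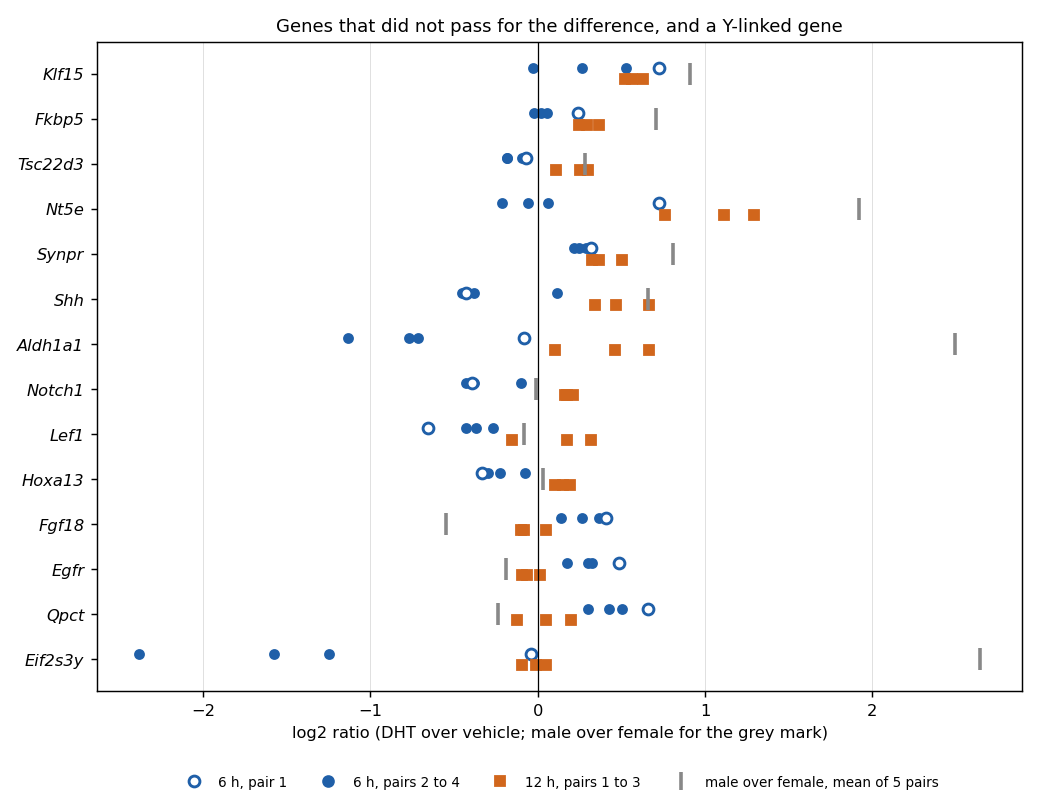
Log2 ratio of DHT over vehicle (horizontal axis) in each pair of pools for 13 genes that did not pass for the difference and for the Y-linked gene Eif2s3y, with the male over female mean as a grey mark. Open circles (6 h pair 1) lie at the right of the 6 h pairs for Klf15, Fkbp5, Tsc22d3, Nt5e, Synpr, Aldh1a1, Fgf18, Egfr, Qpct and Eif2s3y.

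Markers of cell types also differed between pairs. The mean of 31 epithelial markers was −0.51, −0.41, −0.071 and 0.032 in 6 h pairs 1 to 4 and −0.027, 0.30 and 0.57 in 12 h pairs 1 to 3. Pairs 3 and 4 of 6 h and pair 1 of 12 h were near 0. No epithelial marker was called in limma. At an unadjusted p under 0.05, 26 of 31 were higher at 12 h and 0 lower, against 6.54% and 8% of all genes. The median difference was 0.54. Cdh1, the epithelial cadherin, had ratios of −0.82, −0.62, −0.14 and 0.18 and then 0.14, 0.50 and 0.73 (adjusted p = 0.12), so the times overlap. The mean of 22 skeletal muscle markers was −0.35, −0.30, 0.23 and −0.014 and then 0.046, 0.36 and 0.73, and Myog, a muscle transcription factor, ran from −0.83 to 1.16. Neuron and Schwann cell markers, 22 measured, read 0.42 in 6 h pair 1 and −0.13 to 0.080 in the other 6 pairs. Immune markers (21) read 0.094 to 0.21 at 6 h and −0.051 to 0.036 at 12 h, and red blood cell markers (12) −0.21 to 0.20 and −0.31 to −0.034.

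The 6 h ratios of Gata3, Col4a6, Id1, Shh and Fgfr2 were lowest in pair 2, where the epithelial mean was the second lowest, and their 12 h ratios were all positive. With the epithelial mean of each pair as a covariate 0 genes passed in limma (2711 at an unadjusted p under 0.05). The differences were then 0.53 for Gata3, 0.42 for Id1, 0.96 for Epha3, 0.91 for Mkx, 0.73 for Wif1, 0.69 for Smoc2 and −1.15 for Rhoj. Pdia4 went from 0.44 to 0.27, Shh from 0.78 to 0.51 and Fgfr2 from 0.57 to 0.35. The median difference of the bud regulators was 0.19 with the covariate as without it, and the part of epithelial content in that list was not tested. With the covariate the median difference of the epithelial markers was −0.024, which is all but fixed, since the covariate is the mean of those same markers. Smooth muscle markers (17) had a median difference of 0.033 and fibroblast and mesenchyme markers (20) of 0.061, with Mkx the 1 member called.

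**Figure D5:**
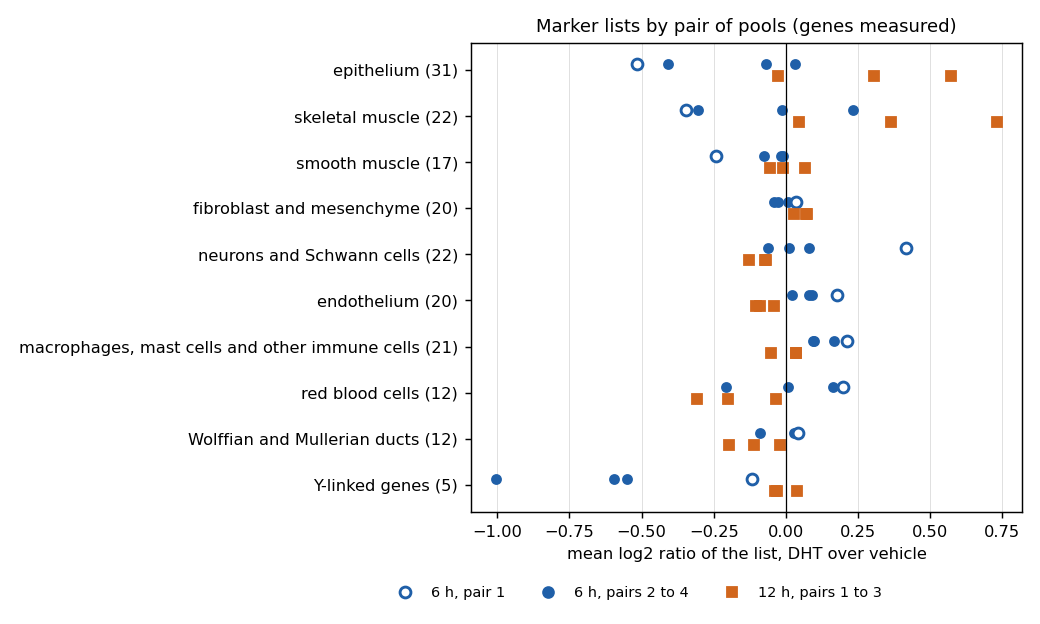
Mean log2 ratio of DHT over vehicle (horizontal axis) of each marker list in each pair of pools, with the number of genes measured in brackets. Epithelial and skeletal muscle means run from −0.51 to 0.57 and from −0.35 to 0.73, the neuron and Schwann cell mean of 6 h pair 1 lies alone at 0.42, and the Y-linked mean is lowest in 6 h pair 2 at −1.01.

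Values were also set beside the sex bias of each gene. Of the 23 called genes, 10 were higher in males and 3 lower in limma, against 931 (3.77%) and 957 (3.87%) of all genes. Both tests use the same spread of a gene, estimated over all 12 pairs, 5 of them male-female. A gene with a small spread is favoured in both, so counts above those shares are in part given by the fit. The part of male RNA in 6 h vehicle pools in these counts was not tested. Over 927 genes higher in males other than Y-linked ones the median ratio was −0.0071, −0.094, −0.012 and −0.0061 in 6 h pairs 1 to 4 and 0.032, 0.081 and 0.11 in the 12 h pairs. Over sex-biased genes the ratio correlated with the male over female ratio at r = 0.011, −0.56, −0.27 and −0.23 at 6 h and 0.17, 0.45 and 0.37 at 12 h, across genes, which share these libraries. The 3 pairs with more Eif2s3y in vehicle have the negative values. Among the 16 opposite genes, 16 had a sign in 6 h pair 1 opposite to their 12 h mean, and 4 of them lay within 0.1 of 0 in that pair. These genes were chosen and classed on a 6 h mean that holds pair 1, which in large part fixes that sign. Pair 2 was the most extreme 6 h pair in the direction of the 6 h mean in 16 of the 23. The like share over all genes was not counted, so the 16 cannot be read as particular to the called genes. Across all genes the SD of the ratio was 0.16, 0.15, 0.12 and 0.091 in 6 h pairs 1 to 4.

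The 10 called genes higher in males included the largest rises at 12 h. Wif1 exceeded females by 1.53 (SD 0.19, n = 5), Mkx by 1.43 (SD 0.23), Slitrk6 by 0.96 (SD 0.15), Epha3 by 0.94 (SD 0.21) and Col4a6 by 0.87 (SD 0.12). Their 12 h ratios were 0.58, 0.90, 0.52, 0.74 and 0.47. Gata3 was at 0.62 and Gadd45g at 0.34 in males. Rhoj and Pcdh8, lower at 12 h, were also lower in males, at −0.48 and −0.16, while 8430406M14Rik was lower in males (−0.13) and higher at 12 h (0.29). Snrpd3, Pdia4, D5Ertd121e, Bcl7a and Cldnd1 did not pass between the sexes, with ratios from −0.063 to 0.098.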

How the data were processed

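Paired RNA pools were hybridised to Agilent arrays of the mouse genome in 2 colours. The deposited scanner files hold spot intensity and local background in both channels, and the scanner's own log10 ratio limited to −2 and 2, per the file headers. The deposited series matrix holds log2 ratios for 41174 probes, with column medians from −0.0112 to 0.0108. Its direction matched that of the scanner ratios once dye-swapped arrays were turned, and how the authors scaled it is not given in the sources used here. Both it and the scanner ratios served as alternatives.

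Mean signals (41534 of 43790 spots were not controls) were corrected by normexp with offset 50 and normalised by loess within each array in limma 3.58.1 (R 4.3.3, data.table version 1.17.8). Outlier spots were removed, dye-swapped ratios changed sign, and the 2 arrays of a pair were averaged where both measured the probe. A probe was kept with a channel well above background on at least 6 of 24 arrays (35477 probes), and the brightest probe stood for its gene (24715 genes, 1767 with a missing pair). Names came from accessions for 21564 probes, symbols for 5363, synonyms for 4597 and the file alone for 9650. The 12 pairs were fitted together with 1 coefficient per comparison, and the contrast of 12 h minus 6 h was tested two-sided with Benjamini-Hochberg adjustment over all genes at 0.05. SD is over pairs and SE from the fit. The number of arrays limits the precision. The fit was tested on simulated data.

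The comparison, the 23 gene lists (541 of 557 members measured) and the rule for naming genes were chosen with earlier results of these data known. The rule named the 4 called genes of largest difference in each class and direction, called members or the 3 members of smallest p in each list, defining markers, genes past the threshold at both times, and genes named earlier. Same-numbered pairs of the 2 times did not deviate together throughout (r = 0.114, −0.0313 and 0.192 for numbers 1 to 3), so numbers were not taken to pair samples. Alternatives varied background correction, normalisation, filter, probe choice, pairs, a replicate block, an epithelial covariate and, added after seeing the data, whether 1 dye orientation is enough. The values of 1 member of the prostatic bud list are not reported here.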

Additional observations from a re-analysis of the deposited data

Results flagged for a closer look

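The response to DHT differed between 12 h and 6 h, by limma's test of the difference itself, in 23 genes. The difference (12 h minus 6 h, log2) was 1.09 for Mkx, 0.99 for Epha3, 0.82 for Wif1, 0.81 for Col4a6, 0.81 for Snrpd3, 0.72 for Gata3, 0.67 for Smoc2, 0.65 for D5Ertd121e and 0.61 for Id1. It was 0.53 for Slitrk6, 0.53 for Gadd45g, 0.45 for Fzd7, 0.45 for Camk1d, 0.44 for Pdia4, 0.40 for Plagl2, 0.39 for Bcl7a, 0.38 for 8430406M14Rik, 0.37 for Cldnd1 and 0.33 for Slc22a4. It was −1.18 for Rhoj, −0.43 for Pcdh8, −0.41 for Mpv17l and −0.29 for B330016D10Rik.

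Among the 4 pairs at 6 h, 1 pair lay far from the others in 6 of 110 genes or list means examined, and chance alone gives about 1 in 20. Shh was at 0.12 in pair 4, above the other 3 pairs, and Notch1 at −0.099 in pair 3, also above the others. Rxra, a retinoid X receptor gene, was at −0.14 in pair 2, below the others. Uty, a Y-linked gene, was at −0.45 in pair 2, the pair with the lowest mean ratio of the Y-linked list, and its DHT channel was not well above background on any 6 h array, so that value is only a limit. The mean of the Notch list was at 0.043 in pair 3, above the others, and that of the Wolffian and Mullerian duct list at −0.089 in pair 4, below the others.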

How the results depend on the processing

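Across the 19 alternatives all 23 called genes kept the sign of their difference and an unadjusted p under 0.05 in limma, while the adjusted calls depended on the setting. The values reported were 23 genes, of which 16 were opposite, 2 late and 5 faded. No background correction gave 10 genes (5 opposite, 1 late). Median centring in place of loess gave 116 (76 opposite, 17 late, 23 faded), 94% of them higher at 12 h against 82.6% as reported. The scanner's own ratios gave 0 genes and 0 in each class, with 2848 genes at an unadjusted p under 0.05 and a lowest adjusted p of 0.0687. The series matrix gave 30, with 1 late and 10 faded. No filter on dim probes gave 4 late genes, and the mean of all probes 5 late and 3 faded. The 7 pairs of 6 h and 12 h fitted alone, without the male-female pairs, gave 14 genes (8 opposite, 4 late, 2 faded). All 14 were higher at 12 h, and 9 of the 23 were among them. Rhoj, Pcdh8, Mpv17l and B330016D10Rik, lower at 12 h, thus did not pass in that fit. With 6 h pair 1 only there were 5 genes (4 opposite, 0 late, 1 faded). The epithelial covariate gave 0 genes and 0 in each class, with 2711 at an unadjusted p under 0.05 and a lowest adjusted p of 0.265. Leaving out 1 pair at a time gave 0 to 15 genes, with 0 to 7 opposite, 0 to 1 late and 0 to 8 faded. It gave 0 without 6 h pair 2 and without each 12 h pair. The replicate block over numbers 1 to 3 gave 270 genes, 17 of the 23 among them. With 1 dye orientation enough, an alternative chosen after seeing the data, 28 genes passed and all 23 were among them. The cause of these shifts was not tested. Named genes, over all alternatives, were on the same side of the threshold 1369 times, lost it 263 times and gained it 33 times.

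With 3 and 4 pairs, differences under about 0.3 on the log2 scale were not called: the smallest called was −0.29. Uty and Ddx3y had no DHT signal well above background at 6 h. Time and hybridisation day cannot be told apart.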

Other observations

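The 5 genes that passed when 6 h pair 1 was the sole 6 h pair were chosen after their values were seen. Asns, which makes asparagine and is induced by amino acid stress, was at 0.53 in pair 1 against a 12 h mean of −0.18. The interferon-induced genes Oasl2 and Cxcl10 were at 0.71 and 0.36 in pair 1 against −0.18 and −0.29 at 12 h. Mgam, an intestinal-type glucosidase, was at 0.53 and −0.16, and the probe without a gene name at 1.00 and 0.017. Over all 4 pairs of 6 h their means were 0.25, 0.22, 0.094, 0.21 and 0.35, and the differences did not pass (adjusted p = 0.0755, 0.209, 0.0755, 0.138 and 0.402 in limma), each in the order Asns, Oasl2, Cxcl10, Mgam and the probe.

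Across genes, which are not independent replicates and share libraries within a pair, the ratios of 2 pairs correlated at 0.089 to 0.47 within 6 h, 0.090 to 0.34 within 12 h and −0.24 to 0.19 between times. Amhr2, the receptor of anti-Mullerian hormone, had ratios of 0.36, 0.81, 0.12 and 0.068 in 6 h pairs 1 to 4 and −0.35, −0.50 and −0.37 at 12 h, and was lower in males by a log2 ratio of −1.08. Its difference of −0.75 did not pass (adjusted p = 0.107 in limma). Cpa3, a mast cell carboxypeptidase, had ratios of 0.67, 0.66, 0.40 and 0.41 at 6 h and 0.097, 0.082 and 0.65 at 12 h, and Ptprc, the pan-leukocyte CD45, went from 0.19 to −0.042 (adjusted p = 0.104). A second, dimmer probe of Ptprc read −0.051 at 6 h and 0.013 at 12 h, in the other direction.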
